A study of Mus musculus with 4 samples.

Results

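The genes described here are 10 components of bone morphogenetic protein (BMP) signaling, chosen by symbol from the 40092 genes of the count table: the ligands Bmp2 and Bmp4, the receptors Bmpr1a and Bmpr2, the receptor SMADs Smad1 and Smad5, the inhibitory SMAD Smad6, and the ID targets Id1, Id2 and Id3. They were measured by RNA sequencing in alveolar type 2 (AT2) cells, the surfactant-secreting progenitors of the lung alveolus, sorted on day 14 after bleomycin, a drug that injures the alveolar epithelium. The control group (Ctrl, n = 2 libraries) was Alkbh5 flox/+ and the knockout group (A5-CKO, n = 2 libraries) was Alkbh5 flox/flox. The titles call the libraries replicates, and the paper does not state how many mice gave each of them. Alkbh5 encodes a demethylase that removes the N6-methyladenosine mark from RNA. Mice of either genotype also had Sftpc-CreERT2 (a Cre that the AT2 gene Sftpc drives and tamoxifen activates) and the Rosa26-mTmG reporter, all received tamoxifen and bleomycin, and GFP+ cells were collected from all of them. The controls were thus heterozygous for the floxed allele and recombined as well, and no uninjured library was compared here.

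BMP ligands are dimers that bring together type I receptors, such as BMPR1A, and the type II receptor BMPR2. The type I receptor then phosphorylates SMAD1 and SMAD5, which enter the nucleus with SMAD4 and switch on genes that include the ID genes and Smad6, an inhibitor that feeds back on the pathway. ID proteins lack a DNA-binding domain and hold E proteins such as TCF3 and TCF4 away from the E-box sites of their targets. In the adult lung, BMP signaling is known to restrain the proliferation of AT2 cells.

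The promoters of Bmpr2, Id2 and Smad6 are shown because the signal of the pathway reaches DNA at short SMAD sites. These 3 genes also had the largest differences between the genotypes among the members that separated after scaling between libraries. Sequences are from RefSeq on GRCm38.p6, written 5′ to 3′ on the strand of the gene, with the motif in capitals. Positions are counted from the transcription start that the promoter window is set on (the last base before it is -1). Bmpr2 (chr1:59764129-59764278, plus strand) has the GC-rich SMAD motif GGCGCC at -105 to -100. Id2 (chr12:25096093-25096342, minus strand) has GGCGCC at -231 to -226 and the E-box CAGCTG at -196 to -191. Smad6 (chr9:64022045-64022074, minus strand) has the palindromic SMAD motif GTCTAGAC at -4 to 4, across the start of its window. That start lies inside the annotated gene (9:63953076-64022085). The motif, at 64022056 to 64022063, is therefore downstream of the outer start of the gene.
Bmpr2: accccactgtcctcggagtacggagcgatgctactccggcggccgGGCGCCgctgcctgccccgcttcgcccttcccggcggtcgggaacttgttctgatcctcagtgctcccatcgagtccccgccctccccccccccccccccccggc
Id2: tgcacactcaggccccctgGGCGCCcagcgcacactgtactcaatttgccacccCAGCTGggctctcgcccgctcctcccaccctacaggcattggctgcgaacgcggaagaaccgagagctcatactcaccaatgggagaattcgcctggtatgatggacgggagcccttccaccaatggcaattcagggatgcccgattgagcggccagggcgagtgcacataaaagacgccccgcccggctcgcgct
Smad6: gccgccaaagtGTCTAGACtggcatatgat

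Windows of 250 bases before to 50 bases after the start were searched for GGCGCC, GTCTAGAC and the E-boxes CACGTG and CAGCTG. Each of these reads the same on both strands, so 1 search covered both, and none of them overlaps another. Of all 32851 promoter windows of the RefSeq table, 11.9% held GGCGCC, 0.213% (70 windows) held GTCTAGAC, 7.15% held CACGTG and 16.3% held CAGCTG. Windows were found for 8 of the 10 members, and 6 of these 8 had at least 1 motif. By window, 7 of the 10 windows of members had a motif. The shares over all windows are for each motif alone, and the share with any of the motifs was not computed. The counts for the members therefore cannot be compared with them, and enrichment was not tested. Beside the 3 genes above, GGCGCC stood at -198 to -193 in Bmpr1a. In Smad5 the same GGCGCC, at 56703033 to 56703038, lay within 30 bases of the start in both of its overlapping windows. The count of 7 windows with a motif therefore includes both windows for this site. CACGTG stood at -188 to -183 in Bmp4. As in Smad6, the start that the window of Bmpr1a is set on lies inside the annotated gene. A match describes the letters only and is not a measured binding site.

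The 4 libraries held 18144865 to 20811757 counts each. Levels are given as CPM, a gene's counts relative to the library total, after scaling by TMM factors of 0.860 to 1.13. Both A5-CKO factors (1.11, 1.13) exceeded both Ctrl factors (0.933, 0.860), so this scaling lowered A5-CKO levels relative to Ctrl. The median log2 fold change of all genes tested was -0.02 with these factors, against 0.30 when scaled by total counts alone. The cause of this split was not tested. Alkbh5 was measured at 81.7 and 152 CPM in Ctrl and at 19.3 and 36.6 CPM in A5-CKO, which separated the genotypes in the direction of the labels (log2 fold change -2.06 ± 0.46 (SE), edgeR unadjusted p = 0.00279, adjusted p = 0.528). None of the 16661 genes tested passed an adjusted p of 0.05 in edgeR's quasi-likelihood test (0% called, smallest adjusted p = 0.528), whereas 1530 had an unadjusted p under 0.05 and DESeq2 on the same genes called 55, with Alkbh5 at an adjusted p of 0.0248 (range over all settings 0.0224 to 0.878). The summed level of 11 AT2 markers was 59233 and 86172 CPM in Ctrl and 43630 and 36364 CPM in A5-CKO, so the sorted cells expressed AT2 genes in every library, at lower levels in A5-CKO (all 11 below 0, 8 of them with separate groups, median log2 fold change -0.88). Of the 9 AT1 markers 7 were tested (not Ager or Pdpn), of which 5 separated higher and 1 lower, while the sum overlapped (1459 to 1768 CPM). Aqp5, the one that separated lower, carried much of that sum, at 981 and 951 CPM in Ctrl and 479 and 636 CPM in A5-CKO. Over all genes tested 20.3% separated higher and 23.5% lower in A5-CKO. The 8 club and ciliated markers summed to 3007 and 2863 CPM in Ctrl and 2112 and 1372 CPM in A5-CKO. Of the 10 endothelial markers, 9 were detected in every library and Cldn5 was at 0 in all, with a sum of 149 to 231 CPM. The macrophage and leukocyte markers summed to 352 to 1156 CPM and the 10 mesenchymal markers to 110 to 1169 CPM, both highest in A5-CKO 2, and the stress genes induced by tissue dissociation were highest in A5-CKO 1 at 10600 CPM against 2927 to 5830 CPM elsewhere. In sorted bulk cells, fewer cells of a type and less RNA per cell cannot be told apart.

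All 10 members passed the filter on low counts, with at least 170 counts in every library, and none passed an adjusted p of 0.05. Only Bmpr2 had an unadjusted p under 0.05, which is 1 of 10 members against 9.18% of all genes tested. Both A5-CKO libraries lay above both Ctrl libraries for Bmpr1a and Bmpr2 (2 of 10, against 20.3% of all genes) and below them for Smad1, Smad6 and Id2 (3 of 10, against 23.5%). The genotypes overlapped for Bmp2, Bmp4, Smad5, Id1 and Id3. These orders are of the TMM-scaled levels. There were 6 members with a log2 fold change above 0 and 4 below, with a median of 0.12 beside -0.02 over all genes tested. These shares are near those over all genes, and the median log2 fold change of the members turned to -0.34 without A5-CKO 1.

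**Figure D1:**
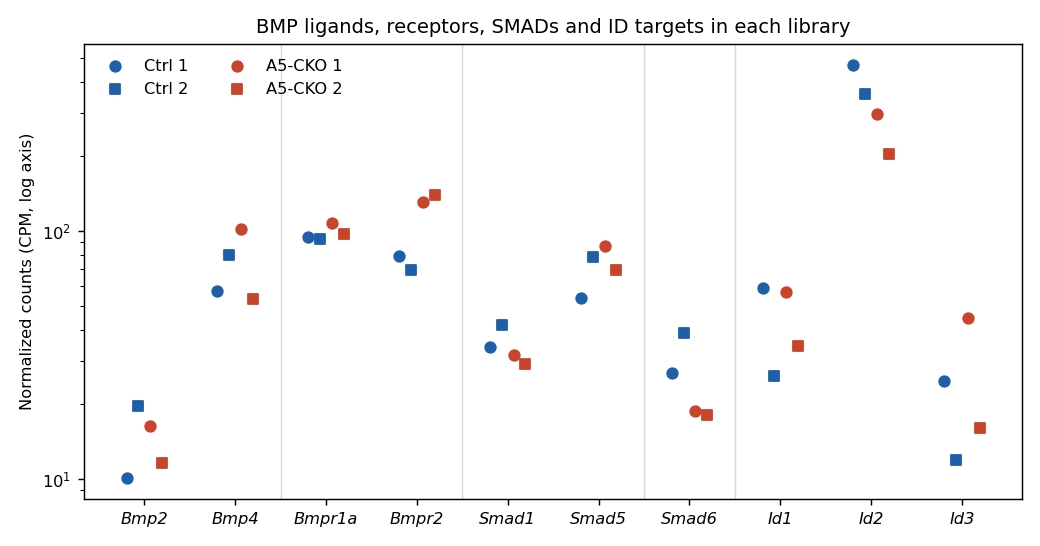
Normalized level (CPM, log axis) of each of the 10 genes in the 2 Ctrl (blue) and 2 A5-CKO (red) libraries, with circles for replicate 1 and squares for replicate 2 and vertical lines between the roles. At these TMM-scaled levels Bmpr2 is higher and Smad6 and Id2 are lower in both A5-CKO libraries. Id1 and Id3 differ more within a genotype than between genotypes.

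Per length of annotated exon, Id2 was the most abundant member at a mean of 137 CPM per kb over the 4 libraries, and its range of 84.3 to 193 did not meet that of Id1, the next gene. Id1 (mean 38.0 CPM per kb) and Bmp4 (32.6) overlapped each other, and Bmp4 lay above Bmpr1a (15.4) without overlap. The remaining neighbors overlapped in their order of Bmpr1a, Id3 (13.6), Smad5 (9.72), Smad6 (7.97), Bmpr2 (5.84), Smad1 (5.44) and Bmp2 (4.05), although Smad1 was above Bmp2 in each of the 4 libraries. The sorted samples therefore held transcripts of both ligands, both receptor types, both SMADs and their ID targets. Which of the cells in these bulk samples carried them was not measured.

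The ligands were measured first. Bmp4 (14:46383525-46390669, GRCm38.p6), the more abundant ligand, was at 57.2 and 80.4 CPM in Ctrl and at 102 and 53.2 CPM in A5-CKO. The highest and the lowest library were both A5-CKO, so the genotypes overlapped (log2 fold change 0.17 ± 0.39, edgeR adjusted p = 0.892, 95% interval -0.76 to 1.11). Bmp2 (2:133552159-133562896) was at 10.1 and 19.6 CPM in Ctrl and at 16.4 and 11.6 CPM in A5-CKO, with both A5-CKO libraries inside the Ctrl range (log2 fold change -0.08 ± 0.47, adjusted p = 0.958, 95% interval -1.21 to 1.04). The 2 Ctrl libraries alone differed 1.95-fold in Bmp2. Its lowest count, 170 in Ctrl 1, has an exact Poisson interval of 145 to 198 that covers counting error only. Counting error is thus small beside the spread between libraries. Neither interval excludes a 1.5-fold change in either direction.

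The receptors gave the one member past the unadjusted threshold. Bmpr2 (1:59764279-59878081), the type II receptor whose loss-of-function variants are known from pulmonary arterial hypertension, was at 79.4 and 69.6 CPM in Ctrl and at 131 and 140 CPM in A5-CKO. The gap between the genotypes was wider than the difference within either of them, which was 1.14-fold in Ctrl and 1.07-fold in A5-CKO. The fitted level was 1.82-fold higher in A5-CKO (log2 fold change 0.86 ± 0.28, edgeR unadjusted p = 0.0189, adjusted p = 0.528, 95% interval 0.19 to 1.53). Bmpr2 is also the longest of the members, with 17983 bases of annotated exon. Its longest transcript, whose length and GC content the correction uses, has 12899 bases at a GC content of 41.0%. With the trend of the fold changes on GC content and transcript length removed, its log2 fold change was 0.12 (unadjusted p = 0.648, edgeR adjusted p = 0.910, the highest of any setting). With 1 library left out the unadjusted p was 0.0672 without Ctrl 2, 0.0841 without A5-CKO 1 and 0.122 without A5-CKO 2 in edgeR (adjusted p = 0.651 to 0.878), and the log2 fold change stayed between 0.73 and 1.02.

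Bmpr1a (14:34411061-34503336), the type I receptor that phosphorylates the receptor SMADs, was at 94.5 and 92.5 CPM in Ctrl and at 107.7 and 97.0 CPM in A5-CKO. The groups did not overlap, but the gap from 94.5 to 97.0 CPM was small beside the difference of the 2 A5-CKO libraries (log2 fold change 0.13 ± 0.28, edgeR adjusted p = 0.884, 95% interval -0.53 to 0.79). The correction for GC content and length turned it to -0.34. The libraries differed 1.02-fold within Ctrl and 1.11-fold within A5-CKO.

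The receptor SMADs, which carry the signal from the receptor to the nucleus, lay on opposite sides of 0. Smad1 (8:79338395-79399428) was at 34.1 and 41.6 CPM in Ctrl and at 31.6 and 29.0 CPM in A5-CKO. Both A5-CKO libraries were below both Ctrl libraries, by a log2 fold change of -0.32 ± 0.32 (edgeR adjusted p = 0.724, 95% interval -1.07 to 0.43), and scaling by total counts alone gave 0.0016. Smad5 (13:56703010-56742378) was at 53.5 and 78.3 CPM in Ctrl and at 87.0 and 69.7 CPM in A5-CKO. These values overlapped (log2 fold change 0.25 ± 0.32, adjusted p = 0.799, 95% interval -0.51 to 1.01), and the GC content and length correction turned the sign to -0.12.

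Smad6 (9:63953076-64022085), the inhibitory SMAD induced by BMP signaling, was at 26.7 and 38.7 CPM in Ctrl and at 18.7 and 18.1 CPM in A5-CKO. The 2 A5-CKO libraries were nearly equal and lay below both controls, which differed 1.45-fold. The fitted level was 1.77-fold lower in A5-CKO (log2 fold change -0.83 ± 0.36, edgeR unadjusted p = 0.0540, adjusted p = 0.528, 95% interval -1.67 to 0.02). The log2 fold change was -0.58 without Ctrl 2, the library with the highest Smad6, and -0.47 with the GC content and length correction. The AT2 markers had a median log2 fold change of -0.88 in the same libraries, and their part in the Smad6 difference was not tested.

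Of the ID targets, Id2 (12:25093799-25096092) was the most abundant and the only one with separate genotypes after TMM scaling. It was at 469 and 359 CPM in Ctrl and at 298 and 206 CPM in A5-CKO, and both A5-CKO libraries were the lowest. The separation rests on that scaling. A5-CKO 1 held 6584 Id2 counts of 19987476 in total, above the 6171 of 20003789 in Ctrl 2, so by total counts the genotypes overlapped. The fitted level was 1.65-fold lower in A5-CKO (log2 fold change -0.72 ± 0.36, edgeR unadjusted p = 0.0839, adjusted p = 0.540, 95% interval -1.56 to 0.13). The GC content and length correction left the log2 fold change at -0.72 with an unadjusted p of 0.0450 (edgeR adjusted p = 0.706), and scaling by total counts gave -0.41. The value was -0.95 without Ctrl 2 and -1.02 without A5-CKO 1, against -0.46 without Ctrl 1 and -0.51 without A5-CKO 2 (edgeR unadjusted p = 0.0471, 0.0999, 0.269 and 0.368, adjusted p = 0.642 to 0.878). The difference of Id2 was of about the size seen over the AT2 markers, whose part in it was not tested.

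Id1 (2:152736251-152737410) was at 59.1 and 25.9 CPM in Ctrl and at 56.8 and 34.5 CPM in A5-CKO. The library numbered 1 was the higher one in both genotypes, by 2.28-fold in Ctrl and by 1.65-fold in A5-CKO, and both A5-CKO values lay inside the Ctrl range (log2 fold change 0.10 ± 0.47, edgeR adjusted p = 0.949, 95% interval -1.01 to 1.21). Id3 (4:136143822-136145392) followed the same order, at 24.9 and 11.9 CPM in Ctrl and at 44.7 and 16.0 CPM in A5-CKO. Its libraries differed 2.09-fold within Ctrl and 2.79-fold within A5-CKO, and its log2 fold change of 0.72 ± 0.58 (adjusted p = 0.671, 95% interval -0.67 to 2.11) turned to -0.21 without A5-CKO 1. Over all genes the libraries of the same number did not deviate together, with a correlation of -0.35.

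Endothelial cells also express Id1 and Id3. The endothelial sum was 166 and 231 CPM in Ctrl and 149 and 231 CPM in A5-CKO, higher in the libraries numbered 2, where Id1 and Id3 were lower. The dissociation stress sum was 3301 and 5830 CPM in Ctrl and 10600 and 2927 CPM in A5-CKO. Id3 and the stress sum were both highest in A5-CKO 1, but in Ctrl the stress sum was higher in replicate 2 and Id3 in replicate 1. The single endothelial markers did not share one order, and the part of endothelial RNA and of the stress genes in Id1 and Id3 was not tested.

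**Figure D2:**
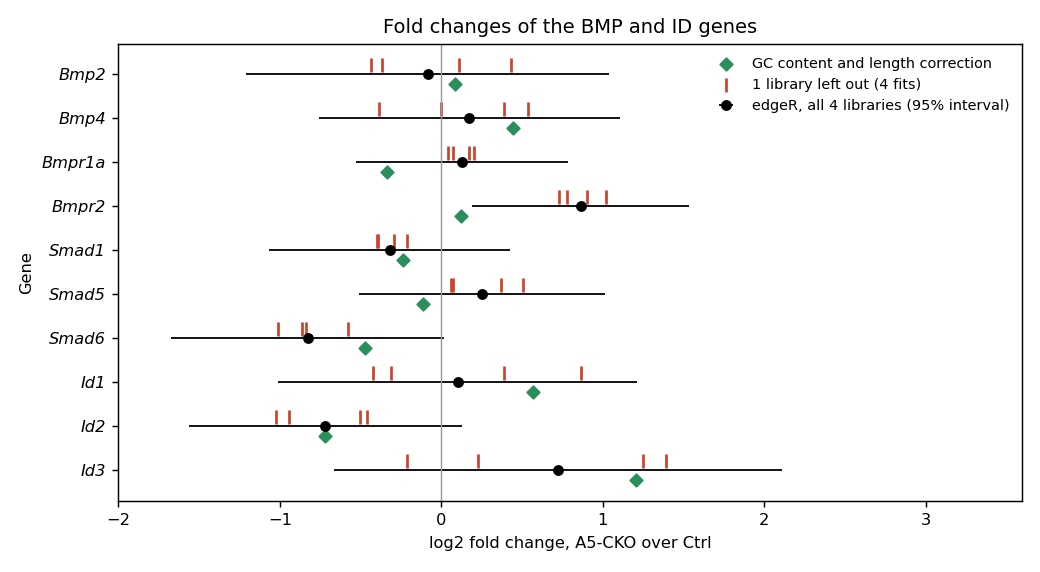
Log2 fold change of A5-CKO over Ctrl for each gene (points, with 95% intervals from edgeR on 4 libraries), with the GC content and length correction (diamonds) and the 4 fits that each leave out 1 library (ticks). Only the interval of Bmpr2 lies above 0, and its corrected value is 0.12. Smad6 and Id2 stay below 0 in every fit drawn.

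Among 59 further genes of the pathway, 43 passed the filter on low counts and 16 were not tested. None passed an adjusted p of 0.05, and 4 of the 43 had an unadjusted p under 0.05, against 9.18% of all genes, with Skil and Tcf4 higher and Rgma and Bambi lower in A5-CKO. The genotypes separated for 7 higher (20.3% of all genes) and for 5 lower in A5-CKO (23.5% of all genes), and overlapped for 31. These counts are near or under the shares over all genes, so the values that follow are a description of the genes. In each role the gene with the highest mean CPM, which is not corrected for length, is described as well. None of the 4 had an unadjusted p under 0.05 without Ctrl 2 or without A5-CKO 2. Over the 43 tested genes the median log2 fold change was 0.16, and 28 were above 0.

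Of the 12 other ligands, 5 were tested and none had separate groups. Bmp5, the highest of them in CPM, was at 42.3 and 35.2 CPM in Ctrl and at 65.2 and 35.8 CPM in A5-CKO, so like Bmp4 it was highest in A5-CKO 1 (log2 fold change 0.38 ± 0.38, edgeR adjusted p = 0.726). Gdf2 and Bmp10, circulating ligands of the endothelial receptor ACVRL1, were at 0.35 CPM or less in every library.

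Of the 10 other receptors and co-receptors, 9 were tested. Rgma, a membrane-anchored BMP co-receptor, was at 27.1 and 57.2 CPM in Ctrl and at 20.8 and 20.9 CPM in A5-CKO (log2 fold change -1.02 ± 0.43, edgeR unadjusted p = 0.0492, adjusted p = 0.528). The highest Ctrl library set much of that difference, and without Ctrl 2 the log2 fold change was -0.42. Neo1, a receptor of the RGM proteins and the highest of this group in CPM, was at 39.0 and 92.6 CPM in Ctrl and at 48.9 and 55.3 CPM in A5-CKO, with both A5-CKO values inside the Ctrl range (log2 fold change -0.34 ± 0.43, adjusted p = 0.80). Acvrl1 and its co-receptor Eng, both typical of endothelium, were like the endothelial sum higher in replicate 2 of each genotype, and the part of endothelial RNA in them was not tested. Acvrl1 was at 37.8 and 60.7 CPM in Ctrl and at 24.4 and 44.6 CPM in A5-CKO, and Eng at 24.5 and 45.4 CPM in Ctrl and at 16.0 and 31.9 CPM in A5-CKO.

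Of the 16 antagonists, 11 were tested. Bambi, a pseudoreceptor without a kinase domain that is itself a target of the pathway, was at 36.5 and 66.4 CPM in Ctrl and at 31.8 and 19.5 CPM in A5-CKO. Both A5-CKO libraries were the lower ones (log2 fold change -1.0 ± 0.42, edgeR unadjusted p = 0.0499, adjusted p = 0.528), and the value was -0.56 without Ctrl 2. Twsg1, a secreted modulator that binds BMPs with chordin, was the highest of the group in CPM at 80.2 and 103 CPM in Ctrl and 95.3 and 107 CPM in A5-CKO (log2 fold change 0.15 ± 0.29, adjusted p = 0.875).

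The follistatin family and Bmper, secreted proteins that bind ligands of this family, were high in the same 2 libraries. Fstl1 was at 31.2 and 8.90 CPM in Ctrl and at 9.60 and 70.0 CPM in A5-CKO, and Fst was at 3.61 and 0.12 CPM in Ctrl and at 1.68 and 15.9 CPM in A5-CKO. Fstl3 was at 30.0 and 11.6 CPM in Ctrl and at 17.0 and 45.8 CPM in A5-CKO, and Bmper was at 1.18 and 0.81 CPM in Ctrl and at 0.63 and 5.86 CPM in A5-CKO. All 4 were highest in A5-CKO 2 and second highest in Ctrl 1. The same 2 libraries led the sums of the mesenchymal markers (464 and 165 CPM in Ctrl, 110 and 1169 CPM in A5-CKO), of the macrophage and leukocyte markers (1111 and 352, 496 and 1156) and of the markers of transitional epithelial cells (3253 and 1391, 2118 and 3508). The part of these cell types in the antagonists' values was not tested. These 4 antagonists and Eng, Acvrl1 and Runx2 were named after their values were seen.

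**Figure D3:**
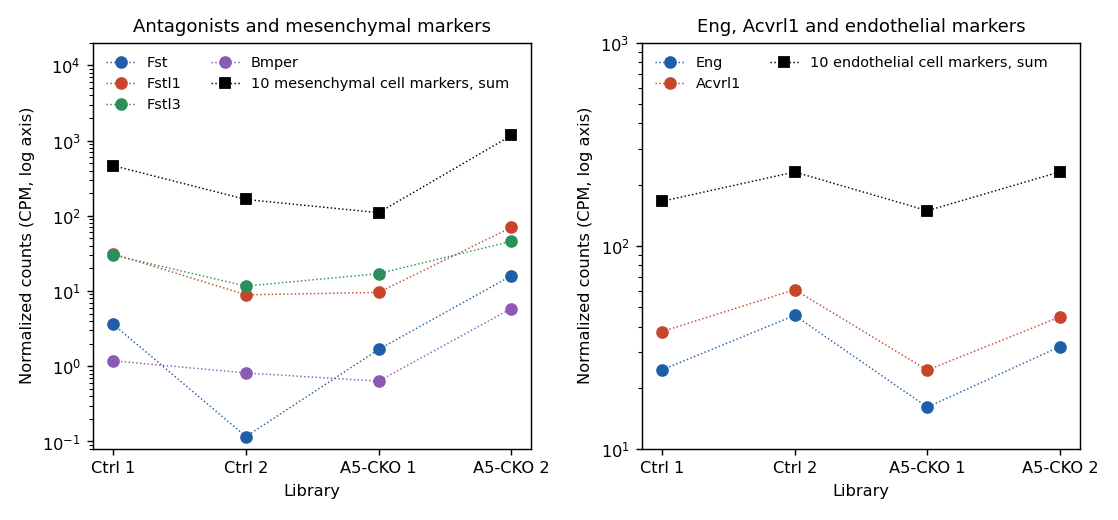
CPM (log axes) of Fst, Fstl1, Fstl3 and Bmper with the sum of 10 mesenchymal markers (left), and of Eng and Acvrl1 with the sum of 10 endothelial markers (right), in each library. Dotted lines only join the points of a gene. The 4 antagonists and the mesenchymal sum are highest in A5-CKO 2, and Eng, Acvrl1 and the endothelial sum are higher in replicate 2 of each genotype.

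All 10 of the other SMADs and SMAD regulators were tested. Skil, a nuclear repressor of SMAD-driven transcription also known as SnoN, was at 52.7 and 38.0 CPM in Ctrl and at 94.2 and 75.8 CPM in A5-CKO (log2 fold change 0.91 ± 0.31, edgeR unadjusted p = 0.0242, adjusted p = 0.528). The groups separated clearly, and with the GC content and length correction the log2 fold change was 0.39. Ski, the related repressor and the highest of the group in CPM, was at 138 CPM in both Ctrl libraries and at 117 and 164 CPM in A5-CKO (log2 fold change 0.03 ± 0.31, adjusted p = 0.980). The related inhibitory SMAD Smad7 was at 32.6 and 34.9 CPM in Ctrl and at 42.1 and 40.5 CPM in A5-CKO (log2 fold change 0.29 ± 0.30, adjusted p = 0.736), so the inhibitory SMADs lay on opposite sides of 0.

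Of the 8 other targets, 5 were tested. Atoh8, a transcription factor induced by BMP signaling in several cell types, was the highest in CPM at 11.6 and 8.15 CPM in Ctrl and 7.29 and 5.34 CPM in A5-CKO (log2 fold change -0.65 ± 0.48, edgeR adjusted p = 0.646). It was the only one of the 5 with a log2 fold change below 0. Runx2, a transcription factor of bone formation, was at 2.90 and 1.45 CPM in Ctrl and at 5.03 and 6.75 CPM in A5-CKO (log2 fold change 1.43 ± 0.61, edgeR unadjusted p = 0.0519, adjusted p = 0.528). Id4, the remaining ID gene, was scarce at 0.35 and 0.93 CPM in Ctrl and at 1.09 and 1.28 CPM in A5-CKO, which also separated upward (log2 fold change 0.87 ± 0.79, adjusted p = 0.701).

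The E proteins, partners that the ID proteins bind, did not move one way. Tcf4 was at 14.01 and 14.5 CPM in Ctrl and at 26.1 and 28.9 CPM in A5-CKO (log2 fold change 0.95 ± 0.34, edgeR unadjusted p = 0.0287, adjusted p = 0.528). Tcf3, the highest of the 3 in CPM, was at 74.3 and 79.2 CPM in Ctrl and at 55.1 and 49.8 CPM in A5-CKO (log2 fold change -0.55 ± 0.28, adjusted p = 0.544). Each gene varied little within a genotype and separated the genotypes, Tcf4 above and Tcf3 below. With the GC content and length correction the log2 fold changes were 0.35 for Tcf4 and -0.20 for Tcf3.

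**Figure D4:**
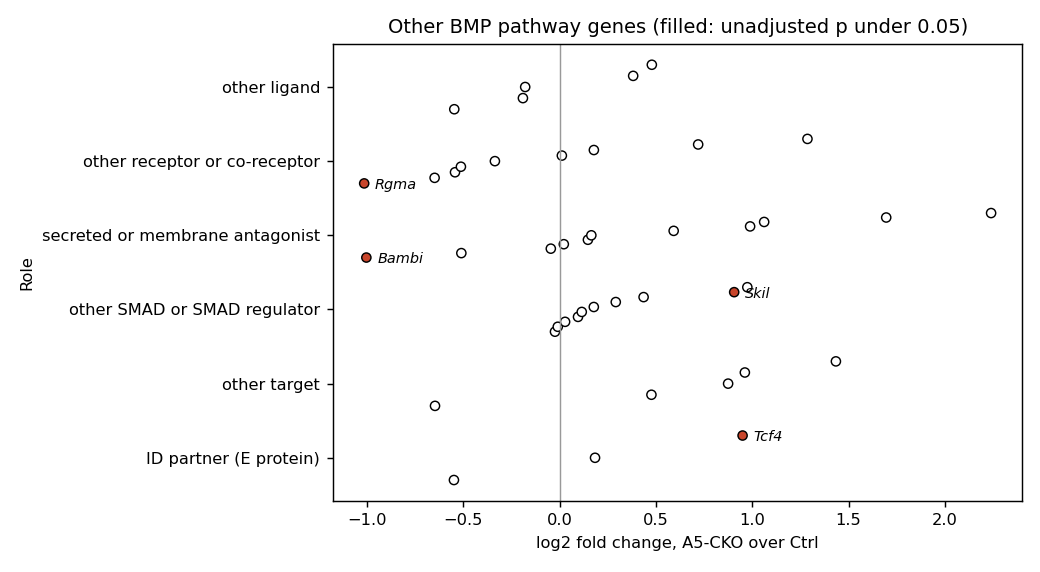
Log2 fold change (A5-CKO over Ctrl) of the 43 tested further pathway genes by role, each point 1 gene, spread vertically only to keep points apart. Filled points had an unadjusted p under 0.05 in edgeR (Skil and Tcf4 above 0, Rgma and Bambi below 0), and none passed after adjustment.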

How the data were processed

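The deposited values are raw counts per gene. Per the labels and methods, the authors trimmed reads of a SMARTER mRNA-seq library of total RNA with Trim Galore 0.6.10, removed ribosomal reads, aligned with HISAT2 2.2.1 to mm10, removed duplicates (without molecular identifiers) and counted with featureCounts 2.0.3. Tool versions are those of the submitters' processing notes. The methods describe trimming, ribosomal read removal, alignment and duplicate removal for RNA sequencing, but give gene counting and DESeq2 in their paragraph on methylated RNA sequencing, so those steps are uncertain for these libraries. The strand setting is not given in the sources used here, so antisense reads cannot be told apart. Columns named wild type and knockout were matched to samples by title and number.

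Genes passing filterByExpr (minimum count 10; 16661 of 40092) were scaled by TMM and tested with edgeR 4.0.16 (quasi-likelihood F-test, R 4.3.3), with no covariate and Benjamini-Hochberg adjustment over all genes tested. SEs were obtained from each fold change and its F statistic. The common dispersion of 0.173 corresponds to a coefficient of variation of 41.6% between libraries of a genotype. With 2 libraries against 2, an exact permutation test cannot go below a two-sided p of 0.333, so none was run. The replicate numbers of the labels were not taken to pair the libraries, since those of the same number had deviations correlated at -0.35. Alternatives were DESeq2 1.42.0, limma voom 3.58.1, other scalings and filters, a replicate block, a GC content and length correction and leaving out each library. That correction covered 15237 genes, 91.5% of those tested. In each library it fitted a spline over GC content and another over the log2 length of the longest transcript, with 4 degrees of freedom each. The fits were also run on simulated counts with 200 changed genes. Recovery was required only at a dispersion below that of these data and for changes larger than those of any member. The simulation therefore does not show how well changes like theirs are found here.

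Members and lists were chosen with earlier results of these data known. All 10 members are reported. Of 59 further pathway genes, those with an unadjusted p under 0.05 and the tested gene of each role with the highest mean CPM, not corrected for length, are named, and Fst, Fstl1, Fstl3, Bmper, Eng, Acvrl1, Smad7, Gdf2, Bmp10, Runx2 and Id4 were named after their values were seen. Coordinates and promoters are from RefSeq on GRCm38.p6 and exon lengths from GENCODE M21.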

Additional observations from a re-analysis of the deposited data

How the results depend on the processing

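In edgeR no setting gave a gene with an adjusted p under 0.05, while DESeq2 called 55 of the genes tested and 59 when it filtered by its defaults. Genes with an unadjusted p under 0.05 numbered 754 with a replicate block and 746 to 1668 with 1 library left out. Scaling by total counts moved the median log2 fold change of all genes from -0.02 to 0.30 and the share of these genes that were higher from 48.8% (746 higher, 784 lower) to 90.9%, against 66.8% with upper-quartile factors, 56.7% with default DESeq2 and 40.6% with the GC content and length correction.

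Bmpr2 and Smad6 passed an unadjusted p of 0.05 in the robust fit, with no filter and without Ctrl 1 (2 members each), Id2 alone without Ctrl 2 and with the GC content and length correction, and no member without A5-CKO 1 or A5-CKO 2, a range of 0 to 2. Under the replicate block Bmpr2 alone passed. The median log2 fold change of the members was 0.42 with total counts and -0.34 to 0.27 with 1 library left out. Pathway genes with an unadjusted p under 0.05 numbered 2 with no filter, 1 with the replicate block, 1 with the GC content and length correction, and 0 to 9 with 1 library left out.

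Bmpr2, Smad6, Id2, Rgma, Bambi, Skil, Tcf4, Tcf3 and Atoh8 kept their sign under all 15 alternatives. Signs turned, as log2 fold changes, for Bmp2 (0.0201 with upper-quartile factors, 0.25 with total counts, 0.0826 with the GC content and length correction), Bmpr1a (-0.34), Smad5 (-0.12) and Twsg1 (-0.0363) with that correction, Smad1 (0.0016) and Neo1 (0.0051) with total counts, and Ski (-0.00048) with no filter. With 1 library left out the ranges were -0.43 to 0.43 for Bmp2, -0.38 to 0.54 for Bmp4, -0.42 to 0.87 for Id1, -0.21 to 1.39 for Id3, -0.13 to 0.72 for Bmp5, -0.77 to 0.38 for Neo1 and -0.27 to 0.24 for Ski. The cause was not tested. With 2 libraries a genotype, a fit that leaves 1 out assumes that the remaining library varies like the other genotype.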

Other observations

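Ratios of counts within a library do not depend on the scaling between libraries. The pairs below were chosen after their values were seen, and no test was made. Some pairs overlapped between the genotypes. Id2 counts were 0.0303 and 0.0219 times those of Sftpc in Ctrl and 0.0290 and 0.0262 times in A5-CKO. Smad6 counts were 0.00172 and 0.00236 times those of Sftpc in Ctrl and 0.00182 and 0.00231 times in A5-CKO. Bmp4 counts were 5.69 and 4.10 times those of Bmp2 in Ctrl and 6.23 and 4.59 times in A5-CKO. The pairs that follow all separated, and the share over all gene pairs was not computed. Bmpr2 counts were 0.840 and 0.753 times those of Bmpr1a in Ctrl and 1.21 and 1.45 times in A5-CKO. Ratios between genes are not corrected for length, and per kb Bmpr1a was the higher receptor in every library. Smad5 counts were 1.57 and 1.88 times those of Smad1 in Ctrl and 2.76 and 2.40 times in A5-CKO. Id2 counts were 7.94 and 13.9 times those of Id1 in Ctrl and 5.25 and 5.97 times in A5-CKO. Tcf4 counts were 0.189 and 0.183 times those of Tcf3 in Ctrl and 0.474 and 0.581 times in A5-CKO, the ratio with the least spread within Ctrl. None of these ratios is corrected for the trend of the fold changes on GC content and length. With that correction the log2 fold changes were 0.12 for Bmpr2 and -0.34 for Bmpr1a, and -0.12 for Smad5 and -0.24 for Smad1. They were 0.35 for Tcf4 and -0.20 for Tcf3, and -0.72 for Id2 and 0.57 for Id1.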
